A study of Mus musculus with 6 samples.

Results

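The Ikaros family is a set of zinc finger transcription factors that in the mouse comprises Ikaros (Ikzf1), Helios (Ikzf2), Aiolos (Ikzf3), Eos (Ikzf4) and Pegasus (Ikzf5). Every array probe of these 5 genes was taken, with each probe assigned to its gene through the RefSeq transcript it was designed on. This gave 10 probes of the 55681 that are not array controls, and 5 of the 20656 genes that could be named; 28452 probes carry no such name and were not searched. Ikzf1, Ikzf2 and Ikzf5 had 2 probes each, Ikzf3 had 1 and Ikzf4 had 3.

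The family members carry zinc fingers near the amino terminus that bind DNA and zinc fingers at the carboxy terminus through which they pair with themselves and with each other. Ikaros, Helios and Aiolos recruit the NuRD chromatin remodelling complex and other corepressors, and can act on genes as repressors or activators. In mouse blood formation Ikaros is needed for lymphoid priming of multipotent progenitors and for B cell development, Aiolos acts later in the B lineage, Helios is expressed in stem cells and in regulatory T cells, Eos is best known as a partner of Foxp3 in regulatory T cells, and Pegasus is the most divergent and least studied member.

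The study asked which genes depend on Satb1, a chromatin organiser, in early blood progenitors. Progenitors were sorted from the fetal liver of embryos on a C57BL6/J background at E18.5, either Satb1-null or wild type littermates, and total RNA of each sort was amplified, labelled with Cy3 and hybridised to a one-colour Agilent array. All sorted cells lacked lineage markers. Haematopoietic stem cell (HSC)-enriched cells had high c-kit and Sca-1 but no Flt3, lymphoid-primed multipotent progenitor (LMPP)-enriched cells had high c-kit, Sca-1 and Flt3, and common lymphoid progenitor (CLP)-enriched cells had low c-kit, low Sca-1 and the receptor IL7Rα. With 3 populations and 2 genotypes there were 6 groups of 1 array each, so no group had a replicate. The number of embryos behind an array and the way the null allele was made are not stated.

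Levels are given as log2 of the processed probe signal over the array's 75th percentile, so a level of 0 lies at that percentile and a difference of 1 is 2-fold. Differences between populations were tested with limma over all 6 arrays, with genotype as the second term. Each population then had 2 arrays, 1 of each genotype, and only 2 residual degrees of freedom remained. The only spread behind a p-value there is how far differences varied between the genotypes. Limma draws the variance of each probe towards that of all probes, which raised the total degrees of freedom to 4.34. The small number of arrays sets how precise the p-value is.

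Between 52.4% and 57.7% of the spots on each array were well above background, and none was saturated. Il7r, whose product was used to sort the CLP, was called higher in CLP than in HSC by 3.76 (SE 0.34, adjusted p = 0.0423 in limma). The fits that left out 1 array, which keep fewer residual degrees of freedom, called no probe in any comparison, Il7r included. Mecom, a stem cell regulator, was not well above background on either CLP array. The 4 CLP markers (Il7r, Flt3, Rag1 and Dntt) summed to 5.28 and 7.90 times the 75th percentile on the wild type and null CLP arrays, below the 10.4 and 11.4 of the LMPP arrays and above the 2.53 and 3.01 of the HSC arrays. Among them Flt3 and Dntt had log2 differences of -1.95 (SE 0.33, adjusted p = 0.0692 in limma) and -0.63 (SE 0.25, adjusted p = 0.257) between CLP and LMPP. Il7r and Rag1 went the other way, by 1.77 (SE 0.34, adjusted p = 0.0851 in limma) and 1.99 (SE 0.71, adjusted p = 0.218). The LMPP markers summed to 59.0 and 55.1 on the LMPP arrays against 21.0 to 35.0 on the others, and the HSC markers to 83.2 to 112 on the HSC and LMPP arrays against 25.0 and 30.6 on the CLP arrays. The 6 erythroid markers had a summed level of 705 and 755 times the 75th percentile on the wild type and null CLP arrays and of 16.1 to 93.1 on the other 4 arrays. The megakaryocyte markers summed to 46.1 and 29.6 on the CLP arrays against 4.69 to 18.4, and the macrophage markers to 7.88 and 12.3 against 0.24 to 1.68. Of the megakaryocyte markers, Pf4, Itga2b and Vwf were highest on the 2 CLP arrays, and Pf4 was brightest there at levels of 5.31 and 4.70. Gp9 was lowest on the null CLP array (-1.45 against -1.08 to -0.56 elsewhere), where Gp5 was not well above background. The natural killer cell markers summed to 67.0 and 56.2 against 14.4 to 23.1, nearly all of it from Nkg7, with Ncr1 never well above background. Nkg7 read 6.06 and 5.78 on the wild type and null CLP arrays, and 3.83 to 4.53 on the others. Klrd1 read -3.04 and 0.05 on the CLP arrays, against -2.64 and -2.31 in LMPP, and Gzma read -3.50 and -1.44 in CLP. The B cell markers summed to 2.89 and 5.05 against 0.91 to 1.76, where Ms4a1 was never well above background. The T cell markers summed to 4.88 and 2.68 on the CLP arrays against 2.36 to 4.76, with Cd4 and Lck well above background on all 6 arrays, Cd3e on 5, and Cd3d, Cd3g and Cd8a on none. Of the regulatory T cell markers, Foxp3 was well above background on the HSC and CLP arrays of both genotypes, and Ctla4 and Il2ra on no array.

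**Figure D1:**
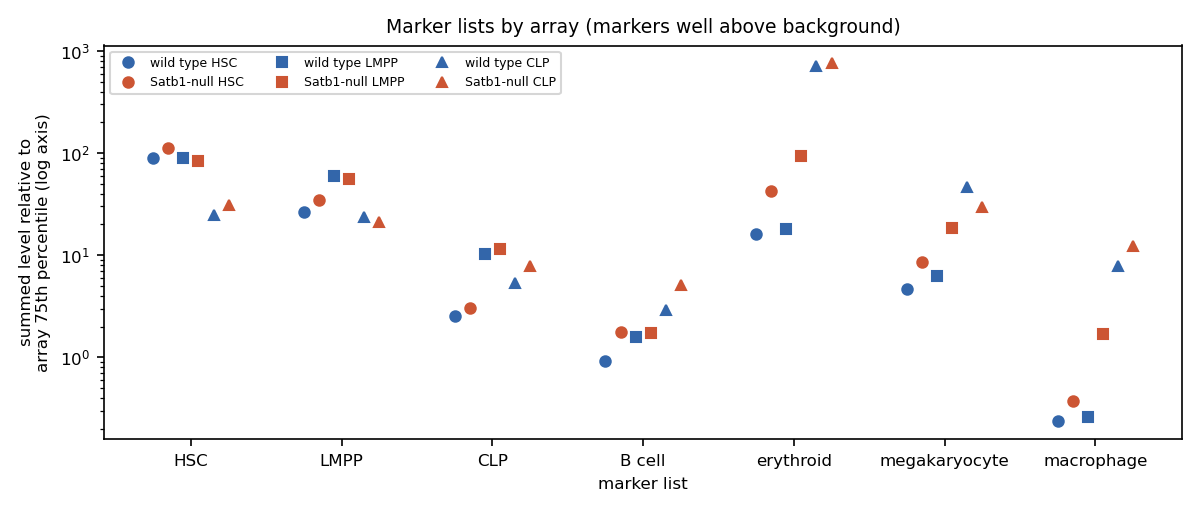
Summed linear level of each marker list (x axis) over the array's 75th percentile (y axis, log scale), 1 point per array, over the markers well above background there. The erythroid, megakaryocyte and macrophage sums are highest on the 2 CLP arrays. There the erythroid sums are 705 and 755, and Pf4 makes up most of the megakaryocyte sums.

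Satb1 itself had 1 probe, with levels of -0.03 in HSC, 2.0 in LMPP and 0.71 in CLP on the arrays labelled wild type and of -0.59, 2.0 and 0.65 on those labelled null. These levels differ little between the genotypes in LMPP and CLP, and the position of the probe relative to the deleted part of the gene is not given, so it does not check the labels, and null below means labelled as null. Genotype also went with the slide row and with sex-linked signal. The noncoding RNA Xist was well above background on all 3 null arrays and on no wild type array, and the Y-linked gene Ddx3y was at -0.63 to 0.44 on the wild type arrays and at -2.44 to -1.60 on the null arrays. Genotype, slide row and sex-linked signal cannot be told apart here. Population went with the slide column, with HSC in column 1, LMPP in column 2 and CLP in column 3 for both genotypes. Population and slide column cannot be told apart either.

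Promoter windows of 250 bases before and 50 bases after an annotated start were taken from RefSeq (GRCm38.p6) for the annotated starts of 2 members. The table held 2 windows of Ikzf1 and 1 of Ikzf5. No window was available for Ikzf2, Ikzf3 or Ikzf4. Ikzf1 and Ikzf5 were each read by 2 probes whose patterns over the populations are set side by side later. Capitals mark GGGAA, the core sequence that Ikaros zinc fingers recognise, or TTCCC, the same core on the other strand.
Ikzf1, chr11:11685675-11685974, plus strand: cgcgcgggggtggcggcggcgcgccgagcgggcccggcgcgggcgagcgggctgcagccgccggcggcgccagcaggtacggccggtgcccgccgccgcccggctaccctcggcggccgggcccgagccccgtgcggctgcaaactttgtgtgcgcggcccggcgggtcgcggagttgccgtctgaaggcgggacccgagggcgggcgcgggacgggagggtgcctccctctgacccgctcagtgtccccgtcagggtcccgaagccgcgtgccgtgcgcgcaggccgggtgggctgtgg
Ikzf1, chr11:11689927-11690226, plus strand: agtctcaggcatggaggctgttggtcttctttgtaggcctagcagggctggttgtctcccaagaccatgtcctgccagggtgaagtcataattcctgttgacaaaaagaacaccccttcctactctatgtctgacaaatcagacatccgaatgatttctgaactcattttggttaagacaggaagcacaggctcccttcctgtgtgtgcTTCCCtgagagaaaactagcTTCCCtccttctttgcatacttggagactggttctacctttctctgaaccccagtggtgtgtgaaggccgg
Ikzf5, chr7:131410429-131410728, minus strand: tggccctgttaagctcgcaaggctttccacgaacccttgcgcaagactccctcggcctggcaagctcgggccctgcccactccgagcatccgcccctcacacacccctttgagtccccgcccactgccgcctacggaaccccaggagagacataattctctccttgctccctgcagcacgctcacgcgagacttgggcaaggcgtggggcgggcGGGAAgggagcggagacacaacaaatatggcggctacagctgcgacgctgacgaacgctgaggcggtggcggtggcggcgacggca
The first Ikzf1 window is GC-rich (81.3% G or C) and held no match to GGGAA on either strand. The second (49% G or C) held 2 matches, both on the other strand and starting 41 and 21 bases before the transcript start. The Ikzf5 window (65.7% G or C) held 1 match, 36 bases before the start. Of all 32851 promoter windows of this length, 62.7% held GGGAA on at least 1 strand, so a match is common. The longer core TGGGAA, which contains GGGAA, stood in 25.6% of all windows and in none of these 3. Which start the transcripts measured here came from was not tested.

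All 5 genes were detected. Of the 10 probes, 8 were well above background on all 6 arrays and entered the tests. The other 2, Ikzf4 A_55_P2119917 and Ikzf4 A_55_P1979674, reached a level well above background on none of the 6 arrays and had signals of 2.66 to 8.27, so they give no difference. None of the 8 measured probes passed limma at an adjusted p of 0.05 in any comparison, and the differences below are therefore values and not calls.

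**Figure D2:**
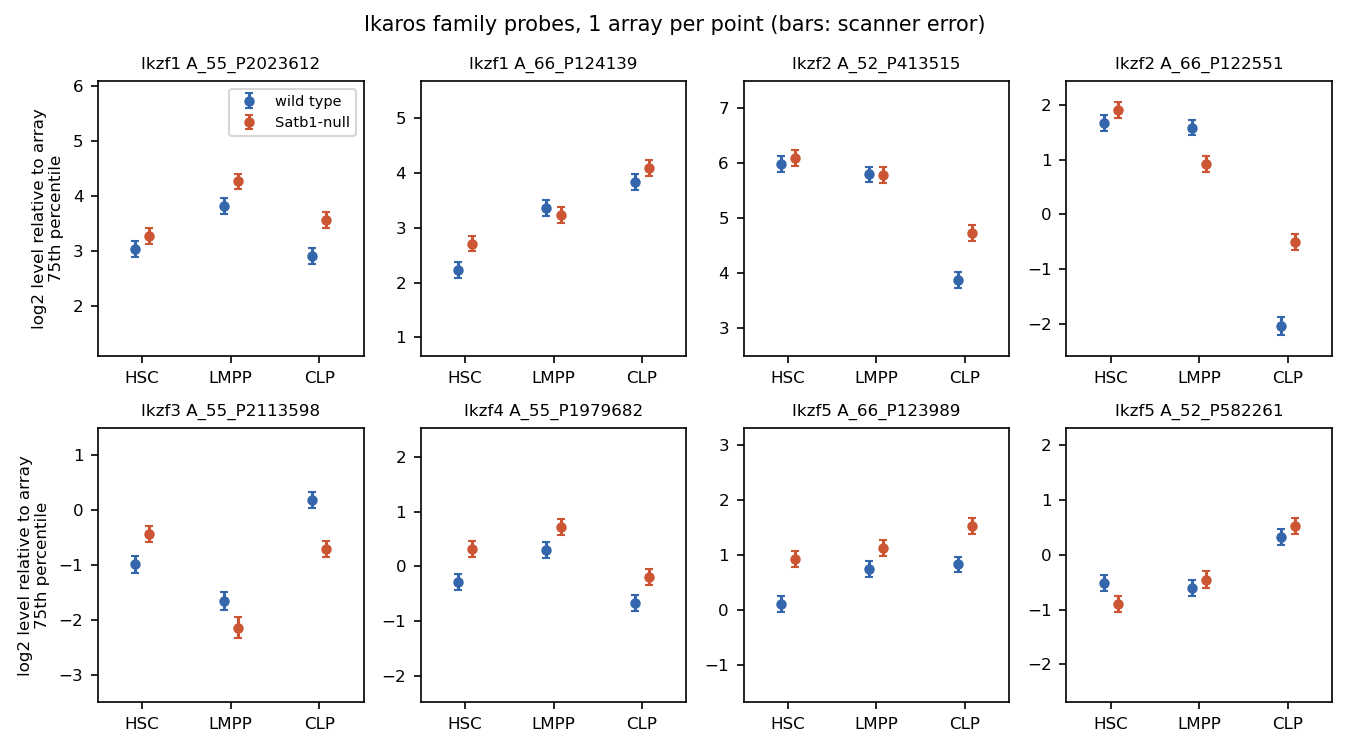
Level of each measured probe (y axis, log2 over the array's 75th percentile) in HSC, LMPP and CLP, with 1 point per array and bars for the scanner error of the spot. Every y axis spans the same range in log2, and both Ikzf2 probes are lowest on the 2 CLP arrays.

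Ikzf1, the founding member, was measured by probes that followed the populations differently. A_55_P2023612 read 3.03 in HSC, 3.82 in LMPP and 2.91 in CLP of wild type, and 3.26, 4.26 and 3.56 in the null. It was highest in LMPP in both genotypes, and its CLP and HSC levels overlapped. In the order of the 6 levels, only the null LMPP array stood above its neighbour by more than the 95% range of the scanner error. LMPP stood 0.89 above HSC (SE 0.26, 95% interval 0.19 to 1.59, adjusted p = 0.626 in limma) and CLP 0.81 below LMPP (log2 difference -0.81, SE 0.26, adjusted p = 0.184).

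The other Ikzf1 probe, A_66_P124139, read 2.23, 3.36 and 3.84 in HSC, LMPP and CLP of wild type, and 2.71, 3.24 and 4.10 in the null. Its order was HSC, then LMPP, then CLP in both genotypes, with no overlap between the populations. CLP stood 1.49 above HSC (SE 0.28, 95% interval 0.74 to 2.25, adjusted p = 0.0811 in limma), which is 3.04-fold in wild type and 2.61-fold in the null. With normexp background correction, which models signal and background together, this difference passed the test at an adjusted p of 0.0222, in a range of 0.0222 to 0.351 over all alternatives. Normexp called 2450 of all 33088 probes between CLP and HSC, against 647 without it. LMPP stood 0.82 above HSC (SE 0.28, adjusted p = 0.637) and CLP 0.67 above LMPP (SE 0.28, adjusted p = 0.269).

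The Ikzf1 probes thus gave differences of the same sign between LMPP and HSC and of opposite sign between CLP and LMPP. Within wild type the CLP minus LMPP difference was -0.91 by A_55_P2023612 and 0.48 by A_66_P124139, and within the null it was -0.71 and 0.86. Between CLP and HSC, A_55_P2023612 differed by 0.08 (SE 0.26, adjusted p = 0.881), and this difference was -0.16 after quantile normalization, so it has no settled sign. The difference between the probes was not tested. The files do not say which Ikzf1 transcripts each probe reads. Whether the erythroid, megakaryocyte and macrophage markers with high sums on the CLP arrays bear on either probe was not tested.

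Both Ikzf2 probes were lowest in CLP, and Ikzf2 A_66_P122551 had the largest difference of the 8 measured probes in each of the 2 comparisons with CLP, though not between LMPP and HSC. A_52_P413515 read 5.99 in HSC, 5.79 in LMPP and 3.87 in CLP of wild type, and 6.10, 5.79 and 4.72 in the null. Both CLP arrays lay below all 4 HSC and LMPP arrays, whose neighbouring levels did not differ beyond the scanner error. The null CLP array stood 1.07 below the null LMPP array, and the wild type CLP array a further 0.85 lower. CLP stood below HSC by a log2 difference of -1.75 (SE 0.33, 95% interval -2.63 to -0.87, adjusted p = 0.0810 in limma) and below LMPP by -1.49 (SE 0.33, adjusted p = 0.103).

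A_66_P122551, the other Ikzf2 probe, read 1.67, 1.58 and -2.04 in HSC, LMPP and CLP of wild type, and 1.90, 0.93 and -0.50 in the null. Again both CLP arrays were lowest, with no overlap. The log2 difference of CLP from HSC was -3.05 (SE 0.58, 95% interval -4.62 to -1.49, adjusted p = 0.0826 in limma), and that from LMPP was -2.52 (SE 0.58, adjusted p = 0.111). In wild type CLP was 13.0-fold below HSC and in the null 5.30-fold, against 4.33-fold and 2.60-fold by A_52_P413515.

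Between LMPP and HSC the Ikzf2 probes differed by -0.25 (SE 0.33, 95% interval -1.14 to 0.63, adjusted p = 0.820 in limma) and -0.53 (SE 0.58, 95% interval -2.09 to 1.03, adjusted p = 0.789). For A_66_P122551 this difference was -0.08 in wild type and -0.98 in the null, and without the null LMPP array the fit gave 0.24. Both Ikzf2 probes passed the test between CLP and HSC with normexp background correction, at adjusted p of 0.0218 and 0.0209, in ranges of 0.0218 to 0.344 and 0.0209 to 0.331 over all alternatives. Between CLP and LMPP they passed with it at 0.0332 and 0.0369, in ranges of 0.0332 to 0.418 and 0.0369 to 0.396. Normexp also called more of all 33088 probes, 2450 between CLP and HSC and 2459 between CLP and LMPP, against 647 and 703 without it. In bulk RNA, fewer cells that express Ikzf2 and less Ikzf2 RNA per cell cannot be told apart. Whether the cells behind the markers that were high on the CLP arrays bear on these levels was not tested.

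**Figure D3:**
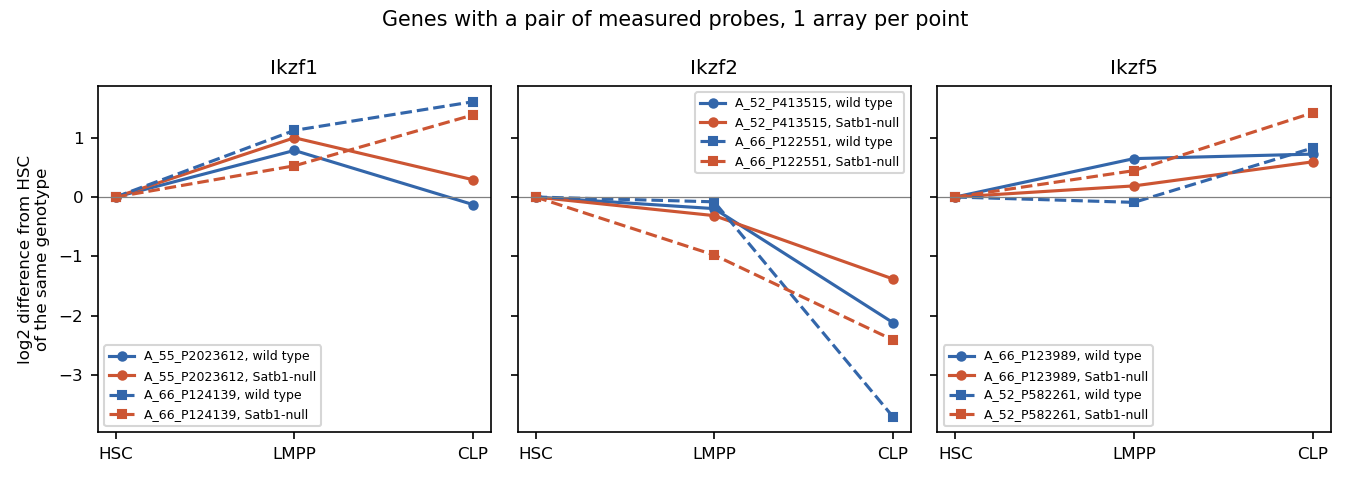
Log2 difference of LMPP and CLP from the HSC array of the same genotype (y axis) for the 3 genes with 2 measured probes, 1 array per point. The Ikzf1 probes part in CLP (-0.13 and 0.29 by A_55_P2023612, 1.61 and 1.38 by A_66_P124139), whereas both Ikzf2 probes are below HSC there in both genotypes.

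Ikzf3 was read by the single probe A_55_P2113598. Its levels were -0.98 in HSC, -1.66 in LMPP and 0.19 in CLP of wild type, and -0.43, -2.14 and -0.70 in the null. Both LMPP arrays were below all other arrays, and the HSC and CLP arrays overlapped. The wild type CLP array stood 0.62 above the null HSC array, the next in order. The null HSC, null CLP and wild type HSC levels each lay within the 95% range of the scanner error of the next. The null HSC level stood 0.55 above the wild type HSC level, beyond that range. The log2 difference of CLP from LMPP was 1.64 (SE 0.43, 95% interval 0.48 to 2.80, adjusted p = 0.136 in limma), and that of LMPP from HSC was -1.19 (SE 0.43, 95% interval -2.35 to -0.04, adjusted p = 0.639). CLP minus HSC was 1.17 in wild type and -0.27 in the null, with a fitted value of 0.45 (SE 0.43, adjusted p = 0.579) that was -0.17 without the wild type HSC array and -0.01 without the wild type CLP array.

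Ikzf4 was measured by A_55_P1979682 alone. The probe read -0.28 in HSC, 0.31 in LMPP and -0.67 in CLP of wild type, and 0.31, 0.72 and -0.19 in the null. LMPP was highest and CLP lowest within each genotype, although the wild type LMPP array and the null HSC array had the same level of 0.31. At the bottom, the null CLP, wild type HSC and wild type CLP levels each lay within the 95% range of the scanner error of the next. The null CLP level stood 0.48 above the wild type CLP level, beyond that range. The log2 difference of CLP from LMPP was -0.94 (SE 0.24, 95% interval -1.60 to -0.28, adjusted p = 0.135 in limma), with -0.97 in wild type and -0.90 in the null. LMPP minus HSC was 0.50 (SE 0.24, adjusted p = 0.668) and CLP minus HSC was -0.44 (SE 0.24, adjusted p = 0.364).

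Ikzf5 A_66_P123989 read 0.10, 0.75 and 0.82 in HSC, LMPP and CLP of wild type, and 0.93, 1.11 and 1.52 in the null. Its populations overlapped across genotypes, and the wild type HSC array stood alone at the bottom, 0.65 below the next. CLP minus HSC was 0.66 (SE 0.27, 95% interval -0.06 to 1.37, adjusted p = 0.246 in limma). LMPP minus HSC was 0.42 (SE 0.27, adjusted p = 0.684) and CLP minus LMPP was 0.24 (SE 0.27, adjusted p = 0.649).

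Ikzf5 A_52_P582261 read -0.51, -0.60 and 0.31 in HSC, LMPP and CLP of wild type, and -0.90, -0.45 and 0.52 in the null. Both CLP arrays were above the other 4, with 0.77 between the lower of them and the next array, and HSC and LMPP overlapped. CLP stood 1.12 above HSC (SE 0.29, 95% interval 0.35 to 1.90, adjusted p = 0.126 in limma) and 0.95 above LMPP (SE 0.29, adjusted p = 0.171). LMPP minus HSC was 0.18 (SE 0.29, adjusted p = 0.858), and it was -0.10 without the null HSC array.

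**Figure D4:**
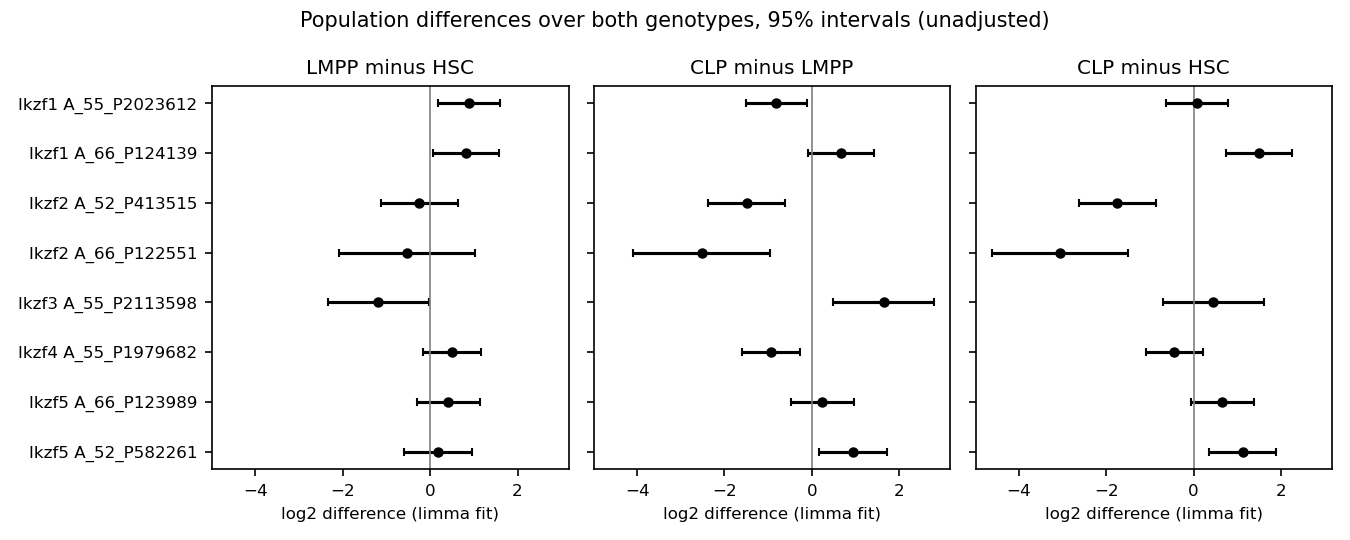
Fitted log2 difference between populations over both genotypes (x axis) for each measured probe, with the 95% interval from limma, not adjusted for the number of probes. The intervals of both Ikzf2 probes lie below 0 in the 2 comparisons with CLP, and no probe passed an adjusted p of 0.05.

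Over the family, 0 of the 8 measured probes were called between LMPP and HSC, where limma called 0% of 33088 probes in either direction, and 3 had an unadjusted p under 0.05, against 7.78% of all probes. Between CLP and LMPP 0 of 8 were called, against 1.25% of all probes called higher and 0.879% lower, with 6 at an unadjusted p under 0.05 against 22% of all. Between CLP and HSC 0 of 8 were called, against 1.04% of all probes higher and 0.916% lower, with 4 at an unadjusted p under 0.05 against 22.9%. The family median was 0.30, -0.28 and 0.27 in these comparisons, beside 0.04, -0.12 and -0.10 over all probes. A difference of more than 2-fold in both genotypes, with no test, was seen for 2 family probes lower in CLP than in LMPP and 2 lower than in HSC, in each case both Ikzf2 probes, against 8.63% and 9.35% of all probes. The same measure found 1 probe higher in CLP than in LMPP (Ikzf3, against 6.77%) and 1 higher than in HSC (Ikzf1 A_66_P124139, against 6.84%), and none between LMPP and HSC, where 1.89% of all probes were higher and 3.37% lower. Probes of the same gene are not independent of each other.

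Between the genotypes, Ikzf4 A_55_P1979682 was higher in the null by 0.60 in HSC, 0.41 in LMPP and 0.48 in CLP, each beyond the 95% range of the scanner error, whose size was 0.21. Ikzf5 A_66_P123989 was higher in the null by 0.83, 0.37 and 0.70, and Ikzf1 A_55_P2023612 by 0.23, 0.44 and 0.65. These 3 probes lay above 0 in all 3 populations, as did 12.4% of 28327 probes, and 0 of 8 lay below 0 in all 3, against 17.3%. The second probes of the same genes did not follow, with 0.48, -0.12 and 0.26 for Ikzf1 A_66_P124139 and -0.39, 0.15 and 0.21 for Ikzf5 A_52_P582261.

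Over the 3 populations limma called 0 of the 8 family probes between the genotypes, where it called 0.00907% of all probes higher in the null and 0% lower, and 1 had an unadjusted p under 0.05, against 5.72% of all. That probe was Ikzf5 A_66_P123989, with a log2 difference of 0.63 (SE 0.22, 95% interval 0.05 to 1.22, adjusted p = 0.784). The fitted difference was 0.49 for Ikzf4 A_55_P1979682 (SE 0.20, 95% interval -0.04 to 1.03, adjusted p = 0.784) and 0.44 for Ikzf1 A_55_P2023612 (SE 0.21, 95% interval -0.13 to 1.01, adjusted p = 0.784). For Ikzf1 A_66_P124139 it was 0.21 (SE 0.23, adjusted p = 0.870), and for Ikzf5 A_52_P582261 it was -0.01 (SE 0.23, adjusted p = 0.996). The family median was 0.34, beside -0.02 over all probes.

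Ikzf2 and Ikzf3 had their largest genotype differences on the CLP arrays. Ikzf2 A_66_P122551 was higher in the null by 1.53 in CLP, which is 2.89-fold and the only family difference past 2-fold, and A_52_P413515 by 0.85. In the CLP arrays 12.5% of all probes were more than 2-fold higher and 10.8% lower in the null, so 1 of 8 is near the background. Ikzf2 A_66_P122551 differed by 0.24 in HSC and -0.66 in LMPP, and A_52_P413515 by 0.11 and -0.01. Ikzf3 was higher in the null by 0.55 in HSC, whereas its difference was -0.48 in LMPP and -0.89 in CLP.

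The fitted genotype difference was 0.32 (SE 0.27, adjusted p = 0.832 in limma) and 0.37 (SE 0.47, adjusted p = 0.885) for the Ikzf2 probes A_52_P413515 and A_66_P122551, and -0.27 (SE 0.35, adjusted p = 0.887) for Ikzf3. Without the wild type CLP array the fitted difference was -0.21 for Ikzf2 A_66_P122551 and 0.04 for Ikzf3. It must be the same without the null CLP array, since a lone CLP array is fitted by its own population term. Both values thus come from the HSC and LMPP arrays alone and are 1 calculation. In HSC and LMPP no family probe was past 2-fold, against 7.88% of all probes higher and 10.7% lower in HSC, and 7.12% higher and 5.92% lower in LMPP. Erythroid markers summed to 16.1 and 17.9 on the wild type HSC and LMPP arrays and to 42.2 and 93.1 on the null ones, and their part in the genotype values was not tested.

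**Figure D5:**
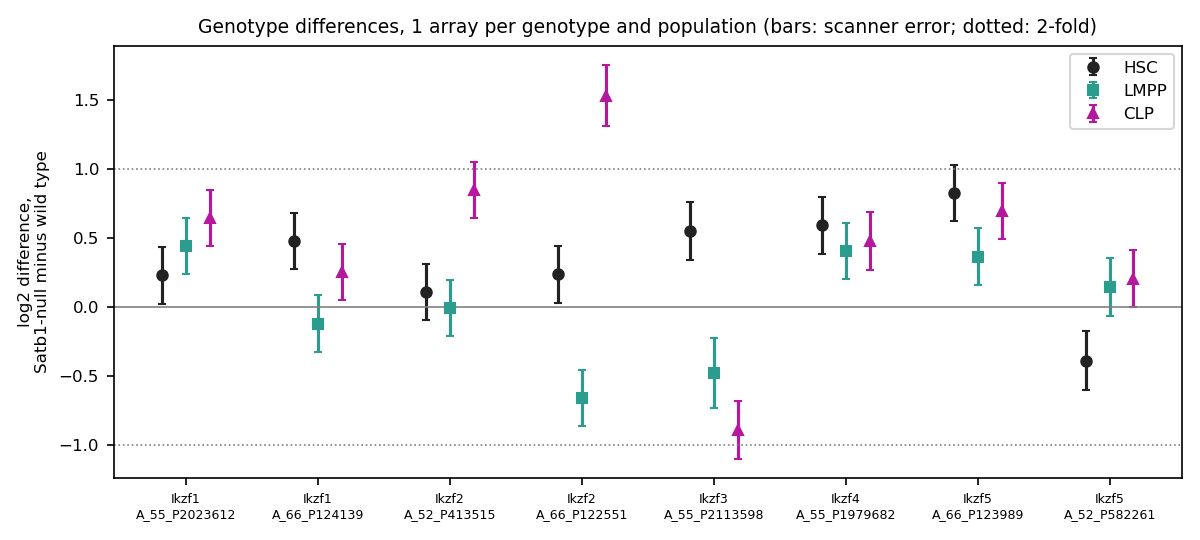
Log2 difference, null minus wild type (y axis), for each measured probe in HSC, LMPP and CLP, from 1 array of each genotype; bars are the scanner error of the difference and dotted lines mark 2-fold. Only Ikzf2 A_66_P122551 in CLP, at 1.53, is past 2-fold, and Ikzf3 is above 0 in HSC and below 0 in LMPP and CLP.

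Genes that work with the family were read from 5 lists with 40 genes in all, of which 37 were tested, each through its brightest probe. Between LMPP and HSC, CLP and LMPP, CLP and HSC, and the genotypes, in that order, the median over all 13719 genes was 0.10, -0.06, 0.02 and 0.05, and 7.49%, 25.5%, 25.8% and 4.45% of them had an unadjusted p under 0.05. Limma called 0 of the 12 tested NuRD genes in these comparisons, beside 2.04% of all genes higher and 1.1% lower between CLP and LMPP. The NuRD medians were 0.21, -0.12, -0.03 and 0.07, and 1, 4, 1 and 0 genes had an unadjusted p under 0.05. Of the 7 CtBP, Sin3 and SWI/SNF genes 0 were called by limma, with medians of 0.10, 0.11, 0.03 and 0.10 and 1, 1, 1 and 0 genes at an unadjusted p under 0.05. Of the 5 tested subunits of casein kinase 2, which phosphorylates Ikaros, and of protein phosphatase 1, which removes those phosphates, 0 were called by limma. Their medians were 0.45, 0.30, 0.75 and 0.09, with 0, 1, 4 and 0 genes at an unadjusted p under 0.05.

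Among the 7 tested lymphoid priming genes that are lower without Ikaros in mouse progenitors, limma called 1 between CLP and HSC, the sort marker Il7r, beside 1.76% of all genes higher, and 0 in the other comparisons. In the same order of comparisons their medians were 1.41, 0.10, 1.52 and 0.34, with 5, 3, 5 and 1 genes at an unadjusted p under 0.05. Flt3 and Il7r in this list were themselves used to sort the cells. Of the 6 genes that Ikaros or Aiolos bind and hold down in mouse lymphoid cells limma called 0, with medians of 0.32, 0.94, 1.03 and 0.53 and 0, 4, 3 and 1 genes at an unadjusted p under 0.05. No gene of these lists was called between the genotypes, where 0.00729% of all genes were called higher.

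For each member, the genes with the most similar levels over the 6 arrays were taken by Pearson correlation among 6483 genes that were well above background on all arrays and ranged over at least 1 on the log2 scale. For Ikzf2 A_52_P413515 they were Rps6ka6 (r = 0.999), Maged1 (r = 0.995) and Sco2 (r = 0.995), and 480 genes had an r over 0.9. Rps6ka6 read 2.82, 2.55 and -3.0 in HSC, LMPP and CLP of wild type and 3.46, 2.35 and -0.71 in the null, so it too was lowest on both CLP arrays and higher on the null one of them. For Ikzf4 they were Gas8 (r = 0.995), Ing4 (r = 0.990) and Rnf31 (r = 0.986), with 206 genes over 0.9.

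For Ikzf1 A_55_P2023612 the most similar genes were Dusp7 (r = 0.988), Atp5d (r = 0.986) and Tedc1 (r = 0.981), with 66 genes over 0.9. For Ikzf3 they were Fv1 (r = 0.993), Gm5901 (r = 0.984) and Tmem40 (r = 0.981), with 57 over 0.9, and for Ikzf5 A_66_P123989 they were Wdfy1 (r = 0.988), Tstd3 (r = 0.974) and Tgfbi (r = 0.973), with 68 over 0.9. Fv1 read -0.38, -1.07 and 0.62 in wild type and 0.29, -1.45 and -0.19 in the null, the same order of arrays as Ikzf3. These correlations describe 6 arrays that share amplification, slide and scaling, and with so few arrays high values arise among many genes.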

How the data were processed

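The 6 groups of fetal liver progenitors were each measured on 1 one-colour array. The members and lists were chosen with earlier results of these data known. Per the file headers, the deposited scanner files come from Agilent Feature Extraction 10.10.1.1 (10.10 per the submitters' processing notes) and hold background-subtracted intensity per spot on a linear scale. The deposited table of processed values equals that intensity times a constant per array (5.71 to 8.77), with column medians of 200.1 (HSC), 140.2 (LMPP) and 120.7 (CLP) for wild type and 165.3, 145.6 and 124.9 for the null arrays. The basis of these constants, and so the table's scaling, is unknown. The arrays lie on 1 slide, wild type in row 1 and null in row 2. In both rows HSC is in column 1, LMPP in column 2 and CLP in column 3.

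From the deposited intensity, log2 values minus each array's 75th percentile over spots that are not controls were computed, without outlier spots. A value below the detection limit was set to the array's lowest signal that passed it (the floor). Probes well above background on at least 2 arrays (33088 after 8 were left out for an outlier spot) were fitted in limma 3.58.1 (R 4.3.3) with genotype and population, and p-values were adjusted over all probes (Benjamini-Hochberg, 0.05). The fit was tested on simulated data: its mean estimates were right, but at this threshold it recovered none of the changes first simulated, and, once larger changes were simulated, few of the smaller size and most of the larger. A probe without a call may thus still differ severalfold. Genotype differences within a population come from 1 array each and have no test; their error is that of the scanner files. Probes were named through RefSeq transcripts (27229 of 55681 named). Figures were drawn with matplotlib 3.10.9 in Python 3.11.15, with tables from pandas 2.3.3. Named were every member probe, list genes only where called, at most 4 a list, and the 3 genes most alike for each member. Alternatives were normexp background correction, quantile normalization, the percentile over probes detected on all arrays, the authors' processed values, other filters, no floor, no genotype term, other fold thresholds, and each array left out in turn. Normexp used the median foreground signal.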

Additional observations from a re-analysis of the deposited data

Results flagged for a closer look

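Ikzf2 A_66_P122551 differed between the genotypes by -0.66 in LMPP and by 1.53 in CLP (log2, null minus wild type), opposite directions that each exceed the 95% range of the scanner error. The other Ikzf2 probe, A_52_P413515, differed by -0.01 and 0.85. Ikzf3 A_55_P2113598 differed by 0.55 in HSC and by -0.89 in CLP, again in opposite directions beyond that error. Each value rests on 1 array of each genotype, and whether the genotype difference depends on the population was not tested, since no group has a replicate. With normexp background correction the Ikzf2 A_66_P122551 value in CLP was 0.84, and the Ikzf3 values were 0.33 in HSC and -0.64 in CLP.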

How the results depend on the processing

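The 8 measured probes had no call in LMPP minus HSC or between the genotypes under any alternative, and with normexp 2 were called in CLP minus LMPP (both Ikzf2 probes, -1.46 and -1.80) and 3 in CLP minus HSC (Ikzf1 A_66_P124139 at 1.43, Ikzf2 at -1.75 and -2.30, adjusted p 0.0222, 0.0218 and 0.0209). Normexp compresses low signals by its offset of 50. Its adjusted p stands against ranges of 0.0222 to 0.351, 0.0218 to 0.344 and 0.0209 to 0.331 over all alternatives of those 3 results. Calls over all probes, 703 in CLP minus LMPP and 647 in CLP minus HSC, were 2459 and 2450 with normexp, 291 and 182 with quantile normalization, 491 and 486 with the percentile over detected probes, 1131 and 960 for probes detected on all 6 arrays, and 0 and 0 with no filter or no floor. The 3 calls between the genotypes were 0 with quantile normalization, the filter on all 6 arrays, no filter, no floor and the HSC and LMPP arrays only. Each of the 6 fits without 1 array, which keep fewer residual degrees of freedom, called 0 probes in every comparison.

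Without genotype as a replicate block, that is with population alone, limma called 1550 and 1538 probes in CLP minus LMPP and CLP minus HSC. These are 4.68% and 4.65% of all probes, beside 0 of the 8 family probes. In CLP minus HSC the limma adjusted p was then 0.0520 for Ikzf1 A_66_P124139. It was 0.0568 and 0.0511 for Ikzf2 A_52_P413515 and A_66_P122551, so all 3 lay just past the threshold. The shared replicate number 1 pairs nothing further, since each group has 1 array.

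Past 1.5-fold between the genotypes were 2 family probes in HSC, 1 in LMPP and 5 in CLP. Over all probes, 5552 of 34148 were higher and 7331 lower by that much in HSC. In LMPP 4356 of 31830 were higher and 4665 lower, and in CLP 7135 of 32511 were higher and 6653 lower. In CLP 0 family probes were past 3-fold, where 2055 of all probes were higher and 1670 lower. With normexp 0 family probes were past 2-fold in CLP, against 1 in the main setting. Over all probes normexp put 1091 higher and 1265 lower there. CLP minus HSC for Ikzf1 A_55_P2023612 changed sign to -0.0085 with normexp, -0.16 with quantile normalization, -0.15 with the percentile over detected probes and -0.10 with the authors' values; null minus wild type for Ikzf5 A_52_P582261 became 0.00060 with normexp. With the HSC and LMPP arrays only, a setting added after the data were seen, null minus wild type was -0.21 for Ikzf2 A_66_P122551 and 0.037 for Ikzf3. By construction these are the values of the fits without either CLP array, so they are no further check. The cause of these changes was not tested.

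Leaving out 1 array at a time, the ranges that crossed 0 were, for CLP minus HSC, -0.17 to 1.07 for Ikzf3 and -0.076 to 0.24 for Ikzf1 A_55_P2023612 (below 0 without either the null HSC or the null CLP array). For LMPP minus HSC they were -0.10 to 0.46 for Ikzf5 A_52_P582261 and -1.30 to 0.24 for Ikzf2 A_66_P122551. For null minus wild type they were -0.12 to 0.18 for Ikzf5 A_52_P582261 (above 0 without either HSC array), -0.21 to 0.89 for Ikzf2 A_66_P122551 and -0.68 to 0.037 for Ikzf3.

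Of the calls in CLP minus HSC 53.2% were higher, against 64.8% with quantile normalization and 39.9% with the percentile over detected probes, which moved the median of all probes from -0.10 to -0.33. Between the genotypes, 42.4% of the probes past 2-fold in HSC were higher, against 32.1% with that percentile, and 54.6% in LMPP, against 74.8% with normexp and 65.4% at 3-fold. With 1 array a group and 2 residual degrees of freedom, differences of this size may be missed, and a probe without a call is not shown to be the same in both groups.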
